A study of Nothobranchius furzeri with 20 samples.

Results

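In killifish liver, 180 genes had a median 1 or more log2 units lower in 9-week fish given rotenone at 1% of the LC50 than in each of 3 other treated groups. Levels were CPM, gene counts scaled to library totals and TMM factors, taken as log2(CPM + 0.5), and each group was summarised by its median. A gene was chosen when its 9-week 1% median lay 1 or more log2 units, which is a factor of 2, below the lowest of the other 3 medians. Each of those 3 medians also had to be 1 CPM or more, which 12924 of the 26739 genes in the count tables met. The 180 genes are 1.39% of these, and all 180 are accounted for here. The distance from the 9-week 1% median to the lowest other median is called the gap.

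The turquoise killifish (Nothobranchius furzeri) is a short-lived fish of seasonal pools and a model of ageing. All fish were male, of strain MZM-04/10p, and every group had received rotenone, so none of the libraries is an untreated control. Each of 4 groups has 5 liver libraries: at 9 weeks of age the doses were 0.1%, 1% and 10% of the LC50, and at 27 weeks the dose was 1%. The length and route of exposure are not given in the labels used here, and no label says whether each library came from its own fish; p-values therefore refer to the spread among the 20 libraries, which may be technical. The 0.1% libraries form a count table of their own, so that dose and table cannot be told apart.

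The liver makes most plasma proteins, stores and releases fuel, makes bile and lipoproteins, and clears foreign compounds. These tasks draw heavily on mitochondrial respiration. Rotenone blocks complex I of the respiratory chain, which passes electrons from NADH to ubiquinone. The LC50 is the concentration lethal to the median animal, so the doses are shares of a lethal level. In bulk tissue, a lower level of a gene can come from less RNA per cell or from fewer cells of the type that makes it, and these cannot be told apart here.

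The gene identifiers could not be paired with names, so the tissue label could not be checked against liver markers, and the members cannot be ordered by function. They are ordered instead by how they behaved across libraries. Identifiers are given for 6 members only.

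Libraries held 23.5 M to 33.9 M gene counts (M, mega), and the 9-week 1% libraries 25.4 M to 33.9 M. Replicate 5 of the 9-week 1% group stood apart. Its mean Spearman correlation with the rest of its group, over the 12924 genes, was 0.769, against 0.887 to 0.9002 for replicates 1 to 4. In it, 20.4% of the 12924 genes lay 1 or more below the lowest other median, against 1.52% to 4.496% in replicates 1 to 4. The main counts and shares of the 9-week 1% group are therefore also given without it.

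**Figure D1:**
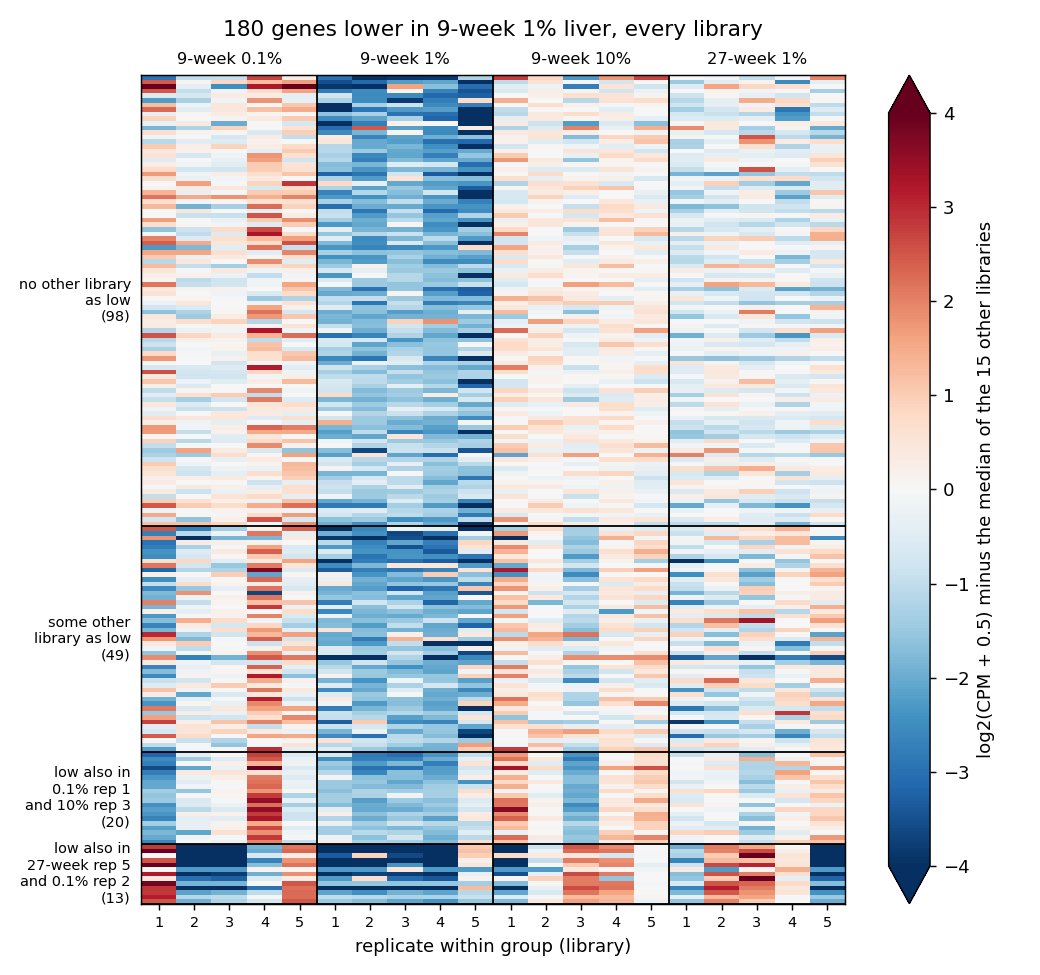
Heat map of the 180 members (each a line across the picture) in all 20 libraries, as log2(CPM + 0.5) minus the median of the 15 libraries outside the 9-week 1% group; colours end at 4 and -4, and larger differences are drawn in the end colours. The 9-week 1% libraries are blue for most members, and the lower 2 bands, of 20 and 13 members, are blue in certain libraries of other groups too.

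The members were lower by a modest factor in most cases. The gap had a median of 1.32 log2 units and ran from 1.00 to 4.37, with the middle 50% between 1.102 and 1.59. In 17 members it was 2 or more, a factor of 4, and in 2 it was 3 or more. The edge of the set is not a natural break: 44 members had a gap under 1.1, and 42 genes left out had a gap between 0.9 and 1. Just inside the edge, the last member had a gap of 1.00011, with log2 medians of 2.01 at 9 weeks and 1%, 5.18 at 0.1%, 4.30 at 10% and 3.01 at 27 weeks. Just outside it, the nearest gene had a gap of 0.999247, with log2 medians of 2.23, 3.23, 3.85 and 3.66 in the same order. These values chose the genes and were not tested.

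The members were spread over low, middle and high abundance. Their median level was 2.49 CPM in the 9-week 1% group, against 11.03 CPM at 0.1%, 14.0 CPM at 10% and 9.84 CPM at 27 weeks. Over the 12924 genes the same medians were 11.29 CPM at 9 weeks and 1%, 10.9 at 0.1%, 10.8 at 10% and 10.96 at 27 weeks. Ranked by level, 54 members were in the lowest of 3 equal parts of these genes, 66 in the middle part and 60 in the highest. The most abundant member reached a group median of 6194 CPM at 27 weeks, where the highest of all 12924 genes stood at 38473 CPM, and 12 members had a median of 100 CPM or more in each of the other 3 groups. At the low end, 64 members had a median under 5 CPM in some other group. In 54 members the 9-week 1% median was under 1 CPM, and in 1 of these it was 0, so that the added 0.5 CPM limits the gap that could be seen.

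Per kilobase of transcript the picture was the same. Medians over the members were 0.992 CPM per kilobase at 9 weeks and 1%, 4.40 at 0.1%, 5.51 at 10% and 3.94 at 27 weeks. The other genes of sufficient level had medians between 4.09 and 4.31 CPM per kilobase in the 4 groups. The members' lengths had a median of 2676.5 bases, with the middle 50% between 1256 and 4630.5, and those of the other genes a median of 2948 bases, between 1496 and 5062.5. With cuts at 1941 and 4182 bases, which divide the genes into 3 equal parts, 72 members were in the short part, 55 in the middle and 53 in the long part. Their median gaps were 1.32, 1.30 and 1.32. The choice cuts the gap off at 1, so these medians do not show whether gap goes with length.

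As a share of all gene counts, the members took 0.232%, 0.310%, 1.018%, 0.759% and 0.216% in 9-week 1% replicates 1 to 5. The group means were 0.507% ± 0.362 at 9 weeks and 1%, 1.76% ± 0.81 at 0.1%, 1.18% ± 0.23 at 10% and 1.42% ± 0.26 at 27 weeks (SD, n = 5 each). Without replicate 5 the 9-week 1% mean was 0.580% ± 0.373 (SD, n = 4). The high values of replicates 3 and 4 came from 3 abundant members, which together took 0.0331% to 0.791% of counts in single 9-week 1% libraries. The other 177 members took 0.172% ± 0.040 of counts at 9 weeks and 1% (0.170% ± 0.046 without replicate 5), 0.983% ± 0.570 at 0.1%, 0.627% ± 0.054 at 10% and 0.508% ± 0.138 at 27 weeks. Without the 3 abundant members the highest 9-week 1% library, at 0.227%, lay below the lowest of the 15 others, at 0.331%. The choice of the members favours this separation. With all 180 members, 9-week 1% replicate 3, at 1.018%, lay above a library of each other group and below the rest. These were 0.1% replicate 3, at 0.781%, 10% replicate 3, at 0.904%, and 27-week replicate 1, at 1.006%.

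Every 9-week 1% library showed the lower level for the set as a whole, but not for the same members. The medians of these libraries chose the members, so a lower level of the set is largely given by the choice. The members' median difference from the median of the 15 other libraries was -1.39, -1.83, -1.49, -1.94 and -1.54 log2 units in replicates 1 to 5. In the 15 other libraries it lay between -0.50, in 27-week replicate 1, and 0.68, in 0.1% replicate 4. Over all 12924 genes the median differences lay between -0.03 and 0.06 in every library. The number of members 1 or more below the lowest other median was 95, 146, 112, 157 and 110 in 9-week 1% replicates 1 to 5, so replicate 4 carried the pattern most fully and replicate 1 least. Among the 15 other libraries the number ran from 0, in 10% replicate 5, to 50, in 0.1% replicate 1.

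**Figure D2:**
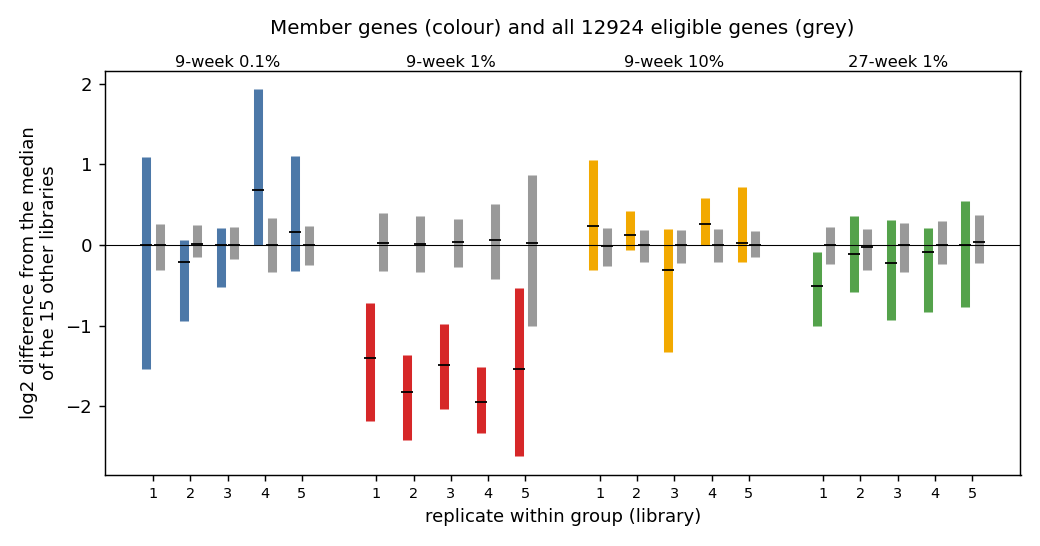
Difference of each library from the median of the 15 libraries outside the 9-week 1% group, in log2 units; coloured bars span the middle 50% of the 180 members with a black mark at their median, and grey bars show the 12924 genes of sufficient level. The members' medians lie between -1.94 and -1.39 in the 9-week 1% libraries and between -0.50 and 0.68 elsewhere, and the grey bar of 9-week 1% replicate 5 is the widest.

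Few members were low in every library of the group. In 12 members all 5 of the 9-week 1% libraries lay 1 or more below the lowest other median, which held for the same 12 of all 12924 genes, or 0.0929%. In 56 members 4 of 5 libraries did so, and in 112 members 3 of 5, the fewest the choice by median allows. Among the 56, the library that failed was replicate 5 in 22, replicate 3 in 19, replicate 1 in 11, and replicates 2 and 4 in 2 each. Replicate 5 held the lowest 9-week 1% value of 60 members and the highest of 58, so for single members it lay at either end.

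The 12 members low in all 5 libraries had gaps of 1.17 to 2.65. Their median level was 4.13 CPM at 9 weeks and 1%, 13.1 CPM at 27 weeks, 15.01 CPM at 10% and 48.7 CPM at 0.1%. The 27-week group was the nearest above in 9 of them. Its median was the lowest of the other 3 in 39.8% of the 12924 genes.

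A stricter view asks whether the libraries overlap at all. In 19 members all 5 of the 9-week 1% libraries lay below all 15 others. This held for 67 of the 12924 genes, or 0.518%, and since the rule used the same contrast nothing is read from the difference. Of the 19, only 4 were also among the 12 above. Disregarding replicate 5, the number was 25. In 42 members no 9-week 1% library lay below all 15 others, and in 14, 26, 41 and 38 members 1, 2, 3 and 4 libraries did. The share over all genes was not taken for the 25 or for these numbers, so nothing is read from them.

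In 98 of the 180 members no single library of another group was as low as the 9-week 1% median. For the other 82 at least 1 of the 15 other libraries was at or below that median. For these, a label of lowered only in 9-week 1% liver describes group medians and not every library. The number of such libraries was 1 in 41 members, 2 in 24, 3 in 8, 4 in 7, 5 in 1 and 6 in 1. They were unevenly spread: 0.1% replicates 1 to 5 were as low for 42, 19, 10, 2 and 1 members, 10% replicates 1 to 5 for 12, 1, 23, 1 and 0, and 27-week replicates 1 to 5 for 7, 3, 10, 6 and 15. The libraries with the highest numbers were thus 0.1% replicate 1 and 10% replicate 3. With the 9-week 1% median taken without replicate 5, 92 of the 180 members had no other library as low. The choice by gap favours such members. The share over all genes of sufficient level was not taken for these counts, so nothing is read from them.

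The 98 members with no other library as low were picked for that, so the separation of groups in them is a description. Their median level was 4.01, 2.53, 4.44, 2.51 and 2.06 CPM in 9-week 1% replicates 1 to 5. It was 12.7, 10.9, 14.6, 22.5 and 18.8 CPM in 0.1% replicates 1 to 5. At 10% it was 16.7, 15.4, 9.97, 16.5 and 14.9 CPM, and at 27 weeks 7.94, 11.001, 10.8, 7.78 and 11.2 CPM. All 5 of the 9-week 1% libraries were lowest, as the choice of these members favours, and the 27-week libraries were mostly next. In 64 of the 98 the 27-week median was the lowest of the other 3, as it was in 90 of the 180 members and in 39.8% of the 12924 genes. Their gaps ran from 1.00 to 2.86, with a median of 1.29.

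A set of 20 members was low also in 0.1% replicate 1 and 10% replicate 3. This set and the next were picked after the values were seen, so they are described with no test. Median levels of the 20 were 3.96, 1.48, 2.06, 1.62 and 6.04 CPM in 9-week 1% replicates 1 to 5. In 0.1% replicates they were 0.974, 4.89, 6.27, 39.8 and 4.81 CPM, so replicates 1 and 4 lay at opposite ends. At 10% they were 26.5, 7.495, 1.73, 8.04 and 18.28 CPM, and at 27 weeks 5.50, 6.91, 3.35, 6.31 and 12.8 CPM. The libraries of all 4 groups overlapped for this set, and 9-week 1% replicate 5 was the highest of its group. Its gaps were small, from 1.00 to 1.97 with a median of 1.19. When replicate 5 was left out of the 9-week 1% median, the set numbered 17.

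The median level of a set of 13 members ranged from 0.111 to 61.8 CPM over the 20 libraries. They were low also in 27-week replicate 5 and 0.1% replicate 2, and 8 of them in 10% replicate 1, 8 in 0.1% replicate 3 and 6 in both. Their median levels were 0.417, 0.383, 0.559, 0.111 and 11.301 CPM in 9-week 1% replicates 1 to 5, and 30.1, 0.246, 0.346, 3.11 and 37.0 CPM in 0.1% replicates. At 10% they were 0.185, 10.0, 28.9, 18.2 and 10.7 CPM, and at 27 weeks 2.68, 61.8, 59.4, 16.6 and 0.168 CPM. Low libraries were thus the majority in the 9-week 1% group and the minority in the 10% and 27-week groups. This set held 5 of the 10 largest gaps, with gaps from 1.019 to 4.37 and a median of 1.84. None (0) of the members belonged to both sets, 49 of the 82 belonged to neither, and with replicate 5 left out of the 9-week 1% median the set numbered 12.

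**Figure D3:**
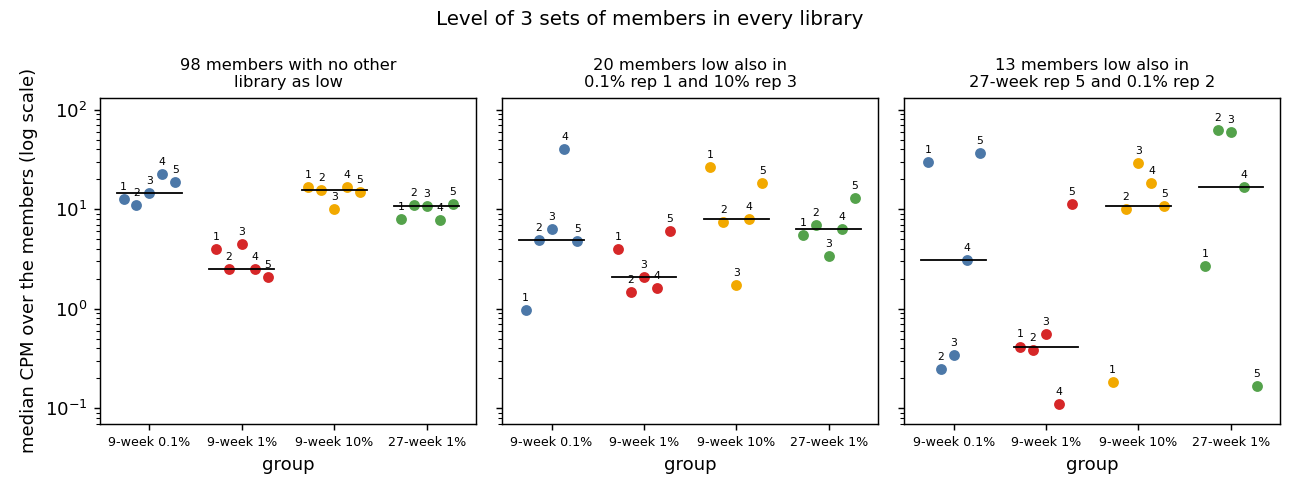
Median CPM over the members, on a log scale, in every library for 3 sets of members; digits are replicate numbers and bars are the medians of the 5 libraries of a group. For the 98 members the 9-week 1% libraries lie at 2.06 to 4.44 CPM, below the other groups, while for the sets of 20 and 13 members single libraries of other groups lie as low.

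Nfu_g_1_005279 had the largest gap, 4.37, and belonged to the set of 13. It stood at 0.547, 0.383, 1.503, 0.409 and 163 CPM in 9-week 1% replicates 1 to 5, and at 546, 0.147, 0.692, 21.1 and 345 CPM in 0.1% replicates. At 10% it stood at 0.148, 43.8, 441, 295 and 78.4 CPM, and at 27 weeks at 19.7, 336, 232, 81.3 and 0.168 CPM. The groups overlapped fully: a library at 0.168 CPM or less occurred in each of the other 3 groups, and 9-week 1% replicate 5 was high. No (0) 9-week 1% library lay below all 15 others. Leaving out single libraries moved the gap between 2.28, without 0.1% replicate 1 or 5, and 6.25, without 0.1% replicate 2 or 3. With group means of the log2 values in place of medians the gap was 2.70.

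Nfu_g_1_008664 had the next largest gap, 3.14, and followed the same libraries. It stood at 0.651, 0.383, 2.20, 0.483 and 93.2 CPM in 9-week 1% replicates 1 to 5, and at 804, 0.246, 0.389, 9.64 and 205 CPM in 0.1% replicates. At 10% it stood at 0.111, 35.4, 200.1, 181 and 40.9 CPM, and at 27 weeks at 18.7, 163, 255, 48.2 and 0.409 CPM. As with the first gene, 0.1% replicates 2 and 3, 10% replicate 1 and 27-week replicate 5 were near 0 and 9-week 1% replicate 5 was high. Its gap ranged from 1.38 to 5.18 when 1 library was left out, again at the 0.1% replicates. The 2 largest gaps of the set therefore belong to genes whose group medians rest on how many of 5 libraries were near 0.

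The members varied more between replicates than other genes, in every group. The median SD of a member's log2 level was 0.901 in the 9-week 1% group, 1.03 at 0.1%, 0.732 at 10% and 0.738 at 27 weeks. Over the 12924 genes the median SDs were 0.535, 0.352, 0.245 and 0.244 in the same order. Without replicate 5 the 9-week 1% values were 0.651 for the members and 0.325 for the 12924 genes. A choice by gaps between medians of 5 favours variable genes, so this is a description of the set. The members' deviations from their group means of log2 level, over the 15 other libraries, had a mean pairwise r of 0.104. It was 0.0117 over the 12924 genes, which share the same 15 libraries and their depths. These genes were not matched to the members in spread, so the difference in r is a description too. Within single groups the members' r was 0.136 at 0.1%, 0.0899 at 10% and 0.0472 at 27 weeks. Over the 12924 genes it was 0.0031, 0.0051 and 0.0322 in the same order, so the values lay closest at 27 weeks.

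A library that took no part in the choice gives a reading of the same measure. Genes were chosen again without each 9-week 1% library in turn, and the library left out was then read. Without replicate 1 the rule chose 201 genes, of which 69 (34.3%) lay 1 or more below the lowest other median in replicate 1, where 1.93% of all genes of sufficient level did. For replicate 2 it was 96 of 162 (59.3%, against 2.27% of all genes), for replicate 3 71 of 195 (36.4%, against 1.52%), and for replicate 4 93 of 141 (66.0%, against 4.41%). For replicate 5 it was 71 of 167 (42.5%), where 20.8% of all genes were as low. The share over all genes is not the value to be met without a group difference. The lowest other median came from the same 15 libraries that chose the genes, and the members vary more than other genes. The 5 readings also share these 15 libraries, and they are given as a description. The new choices shared 155, 130, 139, 117 and 139 genes with the 180, and 97 members were chosen whichever of the 5 libraries was left out. When any 1 of all 20 libraries could be left out, 75 members were chosen every time, and 46 of these were among the 98 with no other library as low.

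**Figure D4:**
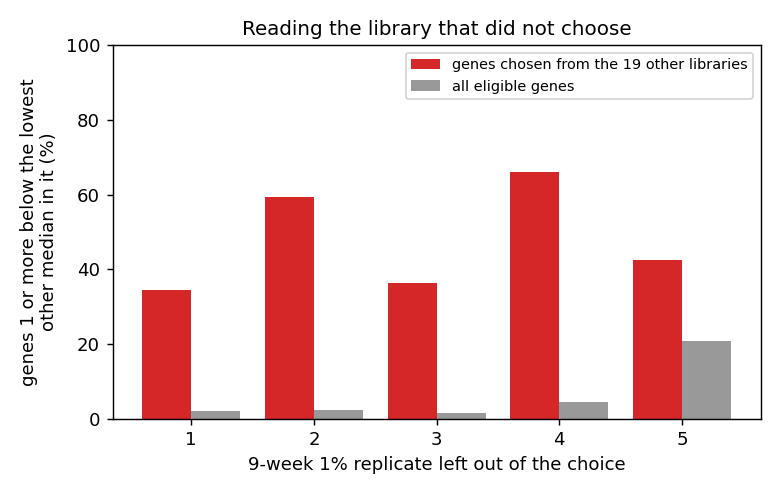
Percent of genes lying 1 or more log2 units below the lowest other group median in the 9-week 1% library that was left out of the choice; red bars show the genes chosen from the 19 other libraries and grey bars all genes of sufficient level. The red bars reach 34.3% to 66.0% for replicates 1 to 4, where the grey bars stay at 4.41% or below, and 42.5% against 20.8% for replicate 5.

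The same rule with another group as the low one found fewer genes, namely 57 for 0.1%, 51 for 10% and 82 for 27 weeks. Turned around, to genes higher in 1 group, it found 62 for 9 weeks and 1%, 68 for 0.1%, 70 for 10% and 105 for 27 weeks. In this direction the floor of 1 CPM applied to the high group only, so both directions draw on different genes. Without 9-week 1% replicate 5 the lower sets numbered 167 for 9 weeks and 1%, 44 for 0.1%, 74 for 10% and 77 for 27 weeks, and the higher sets 49, 67, 66 and 113 in the same order. The groups also differed in spread between replicates. Over the 12924 genes the median SD of log2 level was 0.535 at 9 weeks and 1%, and 0.325 without replicate 5. It was 0.352 at 0.1%, 0.245 at 10% and 0.244 at 27 weeks. Whether spread bears on the numbers found was not tested, and they are counts of genes only.

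The comparisons of 9-week 1% with each other group chose the members and are given as description. By edgeR (adjusted p under 0.05 over 16516 genes), 105 members were called lower than at 0.1%, where 7.82% of all genes were, and 101 lower than at 10%, where 8.03% were. Against 27 weeks at 1%, 26 were called lower, where 0.932% were (2.07% in either direction), and no (0) member was called higher in any of the 3. The median log2 differences were -2.08 from 0.1%, -1.83 from 10% and -1.44 from 27 weeks. In 21 members all 3 calls were made, as in 45 genes (0.272%) in all, and in 61 members none was. The choice of the members used these comparisons, so nothing is read from these counts. Without 9-week 1% replicate 5, 116 members were called against 0.1% and 107 against 10%. Over all genes these 2 comparisons called 3204 and 3576 with replicate 5, and 3365 and 4087 without it. All 3 calls were then made in 8 members, and in 29 genes in all, and none in 51 members. The 26 calls against 27 weeks were the least stable. Their number was 9, 6 and 9 without 9-week 1% replicates 2, 4 and 5, 16, 13, 15, 7 and 12 without 10% replicates 1 to 5, 5, 3 and 7 without 27-week replicates 2, 3 and 5, 16 without 0.1% replicate 5, and 36 without 9-week 1% replicate 3. Over all genes the calls of this comparison numbered 342, and 25 to 532 with single libraries left out.

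Comparisons among the other 3 groups take no difference from the 9-week 1% group, and the rule set no order among them. The rule did bound each of their medians from below, at 1 CPM and at 1 log2 unit above the 9-week 1% median. These comparisons are therefore not fully free of the choice. The 9-week 1% libraries still entered the fit's estimate of spread, so leaving out 1 of them can move these calls. The first asks whether the members differed between the lowest and the highest dose at 9 weeks. By edgeR no (0) member was called between 10% and 0.1%, where 0.0484% of all genes were (0.0182% higher, 0.0303% lower). The smallest edgeR adjusted p of a member was 0.164. With so few calls over all genes, 0 among 180 members is near the share at large, so the calls do not decide the question. Unadjusted p was under 0.05 for 19 members (10.6%), against 6.53% of all genes tested. DESeq2 called 3 members, all lower at 10%, and 144 genes in all, and limma voom called 0 members and 5 genes. The members' median log2 difference of 10% from 0.1% was -0.14, against -0.03 over all genes, and 115 of 180 were below 0. How many of all genes were below 0 is not given here or for the next comparisons.

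The second comparison asks how 27-week livers at 1% stood against 9-week livers at 0.1%. Age, dose and count table differ together in it. Of the members, 22 (12.2%) were called by edgeR, all 22 lower at 27 weeks, where 11.8% of all genes were called in either direction, 5.46% lower and 6.36% higher. The share called in either direction was thus near that of genes at large, with all calls on the lower side. The median log2 difference was -0.61 over the members and -0.05 over all genes tested. It was below 0 in 142 of 180 members, with no count over all genes to set beside this. The number called ran from 15, without 0.1% replicate 1, to 30, without 9-week 1% replicate 5, and at most 1 of those called was higher. Over all genes the calls numbered 1952, and 1647 and 3239 in these 2 settings.

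Nfu_g_1_021215 fell the most between these groups. It stood at 1002, 41.2, 72.5, 1463 and 1165 CPM in 0.1% replicates 1 to 5, and at 26.9, 61.8, 5.39, 38.4 and 21.4 CPM at 27 weeks. At 10% it stood at 268, 325, 968, 973 and 993 CPM, and in 9-week 1% replicates 1 to 5 at 1.12, 10.6, 117, 1.82 and 44.5 CPM. Libraries at 1% were mostly low at both ages, but 9-week 1% replicates 3 and 5 and 27-week replicate 2 lay above the lowest library at 0.1%. The log2 change at 27 weeks was -4.60 ± 1.18 from 0.1% (SE; edgeR adjusted p = 0.0142), with 4 of 5 libraries below all at 0.1%. From 10% it was -4.52 ± 1.18 (SE; edgeR adjusted p = 0.0128), with 5 of 5 below. Its gap was 1.30, and the 9-week 1% and 27-week libraries overlapped.

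Nfu_g_1_011133 fell next to it. It stood at 175, 55.1, 32.3, 96.6 and 94.1 CPM in 0.1% replicates 1 to 5, and at 3.44, 11.02, 12.1, 4.81 and 16.2 CPM at 27 weeks. At 10% it stood at 30.9, 70.3, 46.8, 42.5 and 22.6 CPM, and in 9-week 1% replicates 1 to 5 at 5.16, 3.68, 14.9, 9.36 and 0.179 CPM. The 27-week libraries lay below every library at 0.1% and at 10% and overlapped the 9-week 1% libraries. The log2 change at 27 weeks was -3.25 ± 0.68 from 0.1% (SE; edgeR adjusted p = 0.00371) and -2.17 ± 0.65 from 10% (SE; edgeR adjusted p = 0.0306). The second call was lost without 10% replicate 2, 3 or 4 or 27-week replicate 1, 2, 3 or 4, with edgeR adjusted p between 0.0512 and 0.0842. Its gap was 1.03, close to the edge of the set.

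The third comparison set 27-week livers at 1% against 9-week livers at 10%. By edgeR 11 members (6.11%) were called, 9 lower and 2 higher at 27 weeks, where 14.5% of all genes were called, 5.64% lower and 8.82% higher. The members' share was thus below that of genes at large, mostly because few were called higher. The members also varied more between replicates than other genes in both groups. The median log2 difference was -0.42 over the members, against -0.03 over all genes. It was below 0 in 131 of 180 members, again with no count over all genes beside it. The number called was 23 without 9-week 1% replicate 5, which is in neither group but in the fit, 7, 6 and 5 without 10% replicates 2, 3 and 4, and 7, 6 and 7 without 27-week replicates 1, 2 and 5. Over all genes 2388 were called, 3738 without 9-week 1% replicate 5 and 1792 to 2257 in the other 6 of these settings, so the members' number moved in the same direction as the number at large. With only both groups in the fit, 32 members were called, 29 of them lower, and 4800 genes in all. DESeq2 called 19 members and 3169 genes in all.

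Both named members that rose were low-level genes. Nfu_g_1_017979 stood at 4.99, 3.69, 2.31, 6.18 and 4.30 CPM in 10% replicates 1 to 5, and at 9.24, 25.5, 58.0, 5.34 and 18.31 CPM at 27 weeks. At 0.1% it stood at 1.29, 15.33, 9.13, 4.83 and 2.68 CPM, and in 9-week 1% replicates at 1.17, 1.34, 1.61, 2.79 and 0.897 CPM. In this gene the medians of the 2 groups at 1% lay at opposite ends, with no overlap between their libraries. The log2 change of 27 weeks from 10% was 2.44 ± 0.62 (SE; edgeR adjusted p = 0.0107), with 4 of 5 libraries above all at 10%. Without 27-week replicate 3 it was 1.76, with an edgeR adjusted p of 0.0513.

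Nfu_g_1_019612 stood at 7.87, 5.83, 1.19, 5.28 and 6.60 CPM in 10% replicates 1 to 5, and at 16.4, 46.5, 12.8, 9.32 and 26.5 CPM at 27 weeks. At 0.1% it stood at 4.78, 5.35, 9.69, 26.8 and 10.7 CPM, and in 9-week 1% replicates at 2.21, 1.38, 8.25, 2.86 and 1.67 CPM. All 27-week libraries lay above all at 10% and above all at 9 weeks and 1%, while the 0.1% libraries overlapped both. The log2 change of 27 weeks from 10% was 2.06 ± 0.60 (SE; edgeR adjusted p = 0.0239), with 5 of 5 libraries above. The call was lost without 10% replicate 3 or 4 (edgeR adjusted p = 0.0531 and 0.0521) and without 27-week replicate 2, where the log2 change was 1.59 (edgeR adjusted p = 0.0892).

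**Figure D5:**
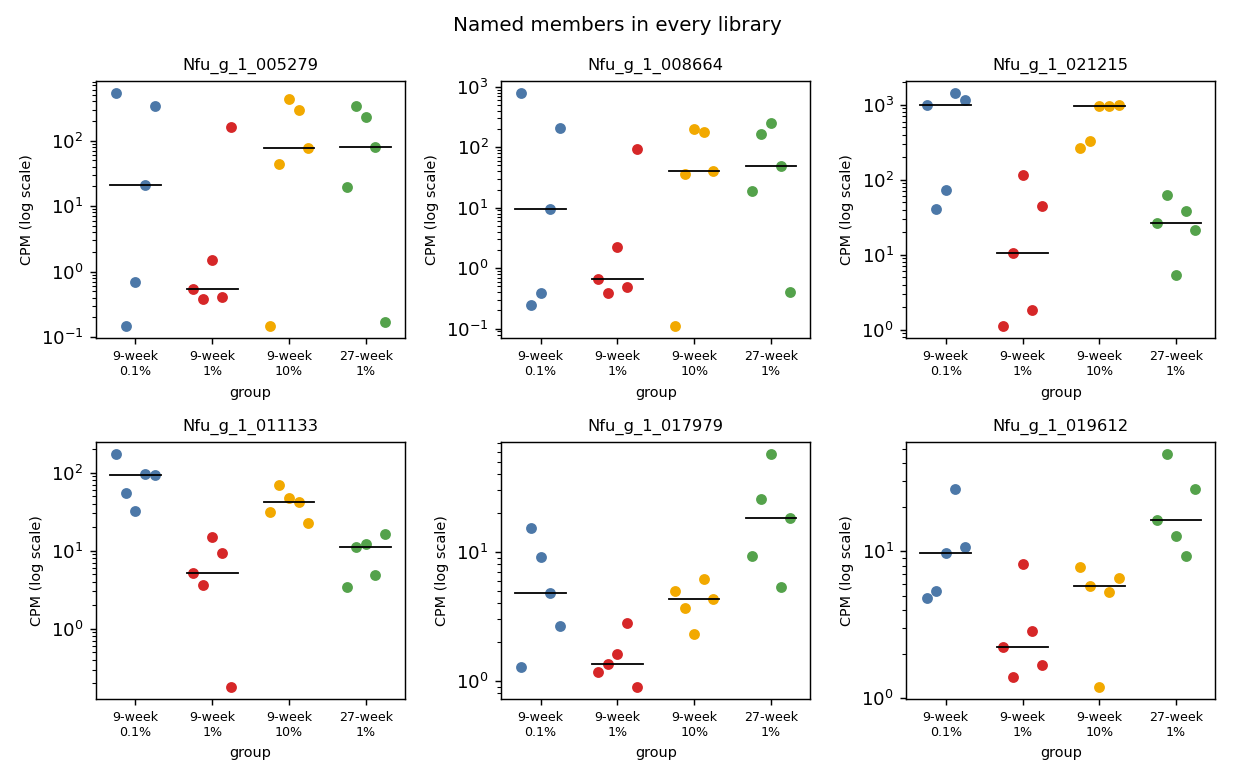
CPM on a log scale of the 6 members given by identifier in all 20 libraries, with replicates 1 to 5 from left to right in each group and bars at the group medians. In the first 2 genes each group spans from under 1 CPM to 93.2 CPM or more, in the next 2 the medians of both groups at 1% are the lowest, and in the last 2 the 27-week median is the highest.

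The 27-week 1% group was the group nearest to 9-week 1% in more members than either other dose. It was the lowest of the other 3 medians in 90 members (50%), against 39.8% of the 12924 genes. The 0.1% median was lowest in 59 members (32.8%), against 27.6% of the genes, and the 10% median in 31 (17.2%), against 32.6%. The members' share was thus above that of the genes for 27 weeks and for 0.1%, and below it for 10%. The 27-week median lay between those of 0.1% and 10% in 54 members, against 21.8% of the genes, and above both in 36, against 38.4%. At the top of the order, 10% was highest in 83 members, 0.1% in 61 and 27 weeks in 36. The share over all genes is not given here for 10% and 0.1%, so nothing is read from their counts. In all, 27 members were called in some comparison without the 9-week 1% group, where 17.5% of all genes were. Of these, 6 were called in both comparisons of 27 weeks, which share the 27-week libraries, where 8.82% of all genes were. Both comparisons with 27-week fish differ in age and in dose together, so a difference with age and a difference with dose cannot be told apart in them. The comparison with 0.1% differs in count table as well, which cannot be told apart from age and dose.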

How the data were processed

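RNA of 20 liver libraries was sequenced after TruSeq library preparation, per the labels' protocols. Raw counts per gene, as deposited by the authors in 2 tables, were joined here by gene identifier. The tools were featureCounts 1.4.6-p4, STAR 2.4.1d and CASAVA 1.8.2, per the submitters' processing notes. Not given in the sources used here are settings, build, annotation and strand use, so counts of overlapping, antisense or near-identical genes are uncertain. Another 10 columns, of samples outside the sample list, were not used. None (0) of the 26739 identifiers matched the RefSeq gene table of NfurGRZ-RIMD1, so the gene and marker lists could not be applied and no sequence is shown. The deposited tables labelled RPKM were treated as a score: their divisors repeated every 35 rows and mixed libraries, scaling values by 0.682 to 1.47 times the correct factor. They served only to recover gene lengths. In the 950 genes of high score used to find the pattern, 99.26% of lengths were whole within 0.01 base. Lengths of the other genes were not checked in this way.

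CPM used edgeR 4.0.16 TMM factors in R 4.3.3. Tests were edgeR quasi-likelihood F-tests, two-sided, on all 20 libraries with 1 mean per group, after filterByExpr (16516 genes, all 180 members included), with Benjamini-Hochberg adjustment over all genes at 0.05. SE was the log2 change divided by the square root of F. Where a library was left out to be read, its level was scaled with all 20. The fit has no term for the table, which coincides with the 0.1% group. Alternatives were DESeq2 1.42.0, limma 3.58.1 voom, other scalings, filters, pseudocounts, floors and gaps, fits of only the groups compared, and each library left out. Scripts were tested on simulated data. Replicate numbers follow sample order and serve as names. Identifiers are given for the 2 members with the largest gap and, per comparison without the 9-week 1% group, the 2 called members with the largest log2 change in each direction. The members, lists and tests were chosen with earlier results of these data known.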

Additional observations from a re-analysis of the deposited data

Results flagged for a closer look

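In 5 of 40 groups of 5 libraries examined, 1 library lay far from the rest by Dixon's criterion. It is met when the gap to the nearest library exceeds 0.71 of the group's range. For normally distributed values chance gives this in about 1 in 20 groups. CPM was examined without log2 and the groups share libraries, so the number flagged is not set against that rate. The groups examined were those of the 6 members given by identifier and of 4 measures per library. Nfu_g_1_005279 stood at 163 CPM in 9-week 1% replicate 5, far above the other 4 libraries of that group. Nfu_g_1_008664 stood at 93.2 CPM in the same library and at 804 CPM in 0.1% replicate 1, far above the others of each group. Nfu_g_1_019612 stood at 26.8 CPM in 0.1% replicate 4 and at 8.25 CPM in 9-week 1% replicate 3, again as the single high library. All 5 were high values, and their causes were not tested.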

How the results depend on the processing

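The rule found 141 (without 9-week 1% replicate 4) to 212 genes (without 0.1% replicate 2) when single libraries were left out, and 128 to 243 with pseudocounts of 1 and 0.1; 184 with DESeq2 size factors, 197 with library totals and 200 with group means, of which 174, 150 and 123 were among the 180. A median floor of 5 CPM left 116 members and a gap of 1.5 left 60, fewer by construction. DESeq2 called 3 members between 10% and 0.1%, 19 between 27 weeks and 10%, and 73 between 9-week 1% and 27 weeks; over all genes it called 144, 3169 and 1542, against 8, 2388 and 342 by edgeR. For the last comparison limma voom and the fit without a filter on low counts each called 11 (128 and 135 genes in all). With only the groups compared in the fit, the numbers were 32 for 27 weeks against 10%, 59 for 9-week 1% against 0.1% and 5 for 9-week 1% against 27 weeks, with 4800, 1091 and 25 genes in all. Leaving out single libraries gave 5 to 23 members for 27 weeks against 10% and 3 to 36 for 9-week 1% against 27 weeks. The cause of these shifts was not tested. Read as any level below the lowest other median, the left-out libraries 1 to 5 showed 79.1%, 88.9%, 73.3%, 88.7% and 62.3% of the genes chosen without them, against 28.03%, 31.1%, 24.1%, 31.9% and 42.0% of all genes of sufficient level. The 4 named members called at 27 weeks kept direction and call by DESeq2, by limma voom, without the filter and with only the groups compared. The counts of the sets of 98, 20 and 13 members, the shares of counts and the members called in all 3 contrasts of 9-week 1% (21, and 8 without replicate 5) or in none were recomputed without replicate 5, an alternative chosen after seeing the data. No paired analysis was possible because the labels give no replicate numbers. With 23.5 M counts in the smallest library, members near 0 rest on few counts.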
